A study of Mus musculus with 6 samples.

Results

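The genes described are 10 markers of cardiac fibroblast states, chosen by name: Fap, Cthrc1, Meox1 and Itgbl1, taken as markers of activated fibroblasts, and Pdgfra, Tcf21, Pi16, Scara5, Dpep1 and Islr, taken as markers of resting ones. The 10 were chosen with earlier results of these data known. All 10 were found, among 34745 genes in the table. The study sequenced total RNA from the left ventricle of wild-type male C57BL/6 mice (a widely used inbred strain), 8 weeks old per the labels. 3 libraries carry the label TAC, for transverse aortic constriction, in which a ligature narrows the aorta so that the ventricle ejects against raised pressure. The other 3 carry the label Sham, for the same operation without the ligature. Tissue was taken 6 weeks after surgery, and the comparison asks how the chronically overloaded ventricle differs from the control ventricle. Whole ventricular tissue holds cardiomyocytes, fibroblasts, vascular cells and immune cells together, so for every gene below fewer cells of a type and less RNA per cell cannot be told apart.

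Cardiac fibroblasts maintain the collagen network between muscle cells. In the healthy heart most are quiescent and express the platelet-derived growth factor receptor alpha (Pdgfra) and the transcription factor Tcf21, and those around vessels express Pi16, a peptidase inhibitor. Under pressure overload or after infarction, fibroblasts proliferate, take up a contractile and matrix-secreting state under TGF-beta and mechanical tension, and express genes such as the surface protease Fap, the secreted glycoprotein Cthrc1 and the homeobox factor Meox1. The resting label does not mean that a gene must fall on activation: Pdgfra remains on many activated fibroblasts, and Islr, also called meflin, is known from mesenchymal stromal cells and from fibroblasts that restrain fibrosis.

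Library totals over genes ran from 17399510 to 28401399 counts. The labels do not state whether the 3 libraries of a group are 3 animals, and p-values therefore describe the scatter of these libraries. Libraries of 1 group were not copies of each other: a chi-square of their counts averaged 15.6 or more over genes in every pair. Along the first principal component of log2 CPM (48.5% of variance) the groups separated, and along the second (21.4%) TAC 3 lay away from the other 5 libraries. Nppa and Acta1, which are known to rise in the overloaded ventricle, were higher in the Sham-labelled libraries, at 1087 ± 704 against 83.9 ± 17.0 CPM (SD, n = 3) and 3791 ± 1079 against 403 ± 263 CPM. Nppb, Myh7 and Myh6 did not pass (log2 differences of -1.59, SE 0.60, -0.69, SE 1.37, and 0.70, SE 0.23). CPM is the count scaled to library size after TMM normalisation, and each value is a mean ± SD over libraries. Since Nppa and Acta1 contradict the labels, the groups are named here only by their labels, and directions are those of the labels.

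Of the 4 activated markers, 2 were higher in the Sham-labelled libraries: Itgbl1 by 4.89-fold and Cthrc1 by a fitted 24.1-fold (edgeR quasi-likelihood test, Benjamini-Hochberg adjusted p = 0.0256 and 0.0293). Meox1 stood 4.29-fold higher there without passing (adjusted p = 0.0563), and Fap, at 1.25-fold, was far from passing (adjusted p = 0.387). None of the 6 resting markers passed in edgeR. 4 of them had an unadjusted p under 0.05, beside 3178 of all 15198 genes tested. DESeq2 called 3, beside 1164 of the 15646 genes it tested. Of 15198 genes tested, 1.43% passed: 1.11% with the higher level under the Sham label and 0.322% with the higher level under the TAC label. The labelled groups did not overlap for 3 of the 4 activated and 4 of the 6 resting markers, against 27.0% of all genes tested. The median log2 difference, labelled TAC minus labelled Sham, was -2.20 for the activated and -0.41 for the resting markers, beside 0.01 for all genes tested. Since the members were chosen with earlier results of these data known, these comparisons with all genes are descriptive only. All 10 passed the filter on low counts, Cthrc1 only through the Sham-labelled libraries, where it was higher. Its call and its place in the counts and median above therefore depend on that group. A filter at a mean FPKM of at least 1 dropped it. These calls rest on all 6 libraries: without TAC 1, TAC 2, TAC 3 or Sham 2 neither Itgbl1 nor Cthrc1 passed, without Sham 3 Itgbl1 alone did, and without Sham 1 both and Meox1 did. Itgbl1, Cthrc1 and Meox1 each had an unadjusted p under 0.05 in each of these fits.

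**Figure D1:**
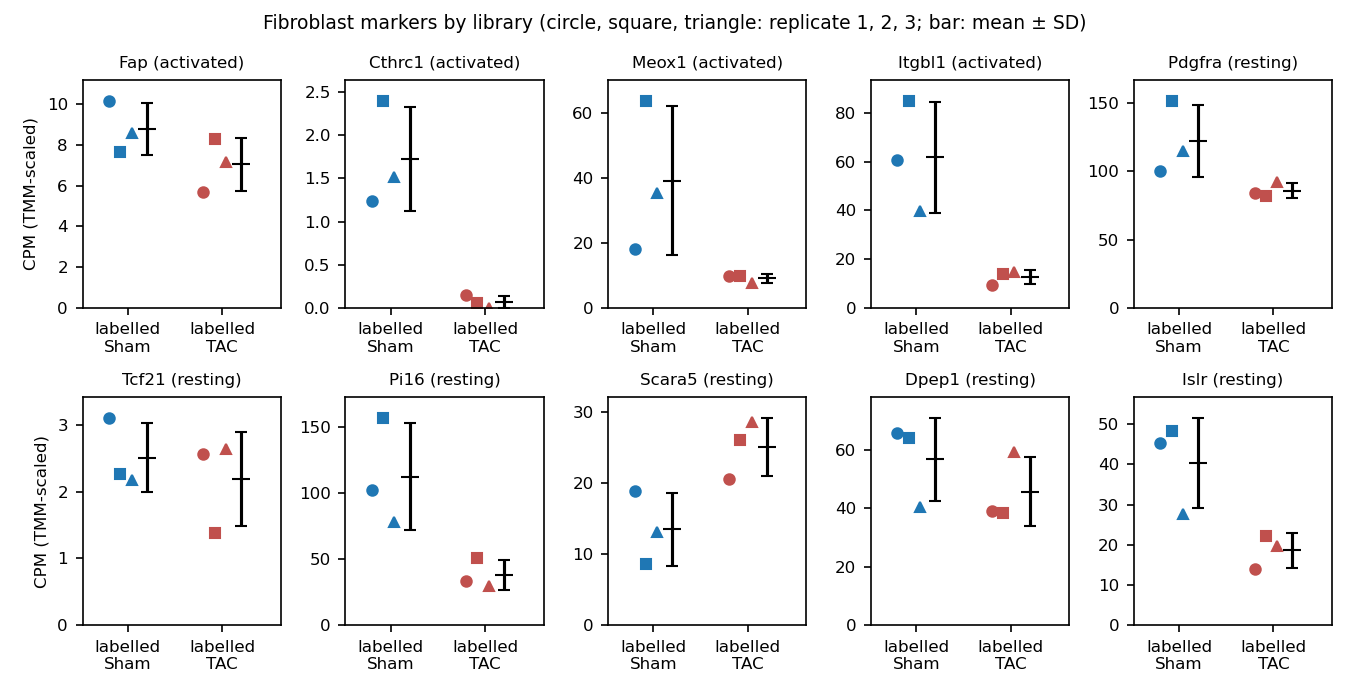
Level of each of the 10 markers in every library, in TMM-scaled CPM on linear axes that start at 0. Points are single libraries and bars give the mean ± SD of 3. Itgbl1, Cthrc1, Meox1, Pi16, Islr and Pdgfra lie higher in all 3 Sham-labelled libraries, Scara5 lies higher in all 3 labelled TAC, and the groups overlap for Fap, Tcf21 and Dpep1.

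**Figure D2:**
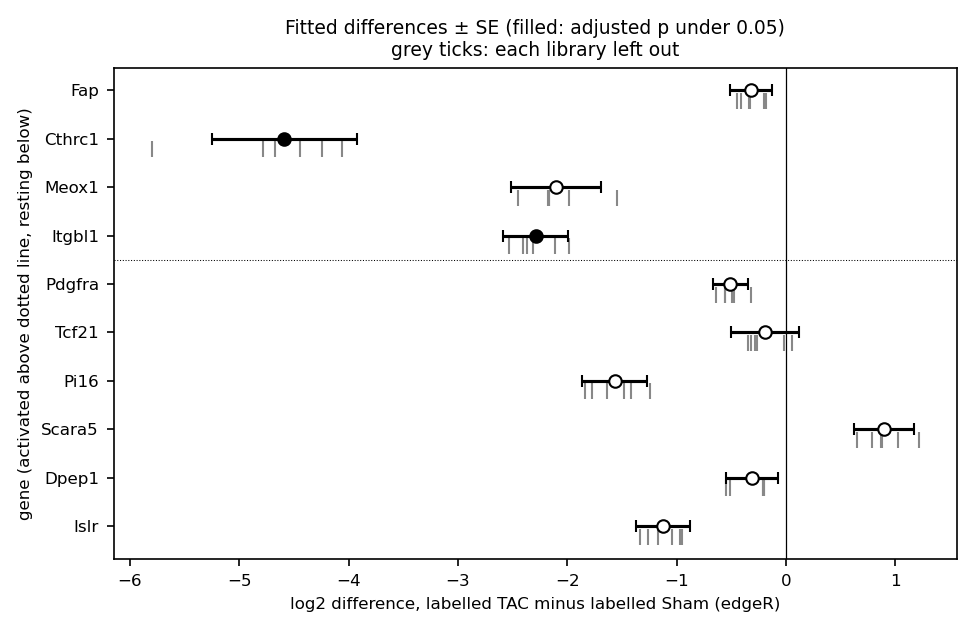
Fitted log2 difference of each marker with its SE from edgeR, activated markers above the dotted line. Grey ticks are the same difference with 1 library left out. Only Cthrc1 (-4.59) and Itgbl1 (-2.29) passed the test with all 6 libraries, and Scara5 (0.90) has the one positive estimate.

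The promoter windows of the markers set a sequence beside these values. RefSeq windows on GRCm38.p6, 250 bases before to 50 after the annotated start, were listed for 6 of the 10 markers, and not for Fap, Cthrc1, Meox1 or Scara5. The 3 printed here belong to markers that stood at least 2.18-fold apart with groups that did not overlap. Each reads 5′ to 3′ on the gene's own strand: Itgbl1 at chr14:123659890-123660189 (plus), Pi16 at chr17:29318632-29318931 (plus) and Islr at chr9:58158505-58158804 (minus). For all 3, the RefSeq start lies inside the span that the deposited table gives for the gene, farthest for Islr and least for Pi16. Capitals mark matches, on either strand, to the short cores CAGAC (bound by SMADs), GGAATG (TEAD), TGANTCA (AP-1), CAGCTG (an E-box, the class of site bound by Tcf21 and other basic helix-loop-helix factors) and TATAAA.
Itgbl1: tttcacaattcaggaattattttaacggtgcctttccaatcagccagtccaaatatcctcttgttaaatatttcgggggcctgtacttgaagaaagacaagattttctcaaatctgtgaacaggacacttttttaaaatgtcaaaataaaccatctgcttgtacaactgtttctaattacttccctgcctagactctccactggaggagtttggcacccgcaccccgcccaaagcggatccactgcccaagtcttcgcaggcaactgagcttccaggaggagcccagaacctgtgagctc
Pi16: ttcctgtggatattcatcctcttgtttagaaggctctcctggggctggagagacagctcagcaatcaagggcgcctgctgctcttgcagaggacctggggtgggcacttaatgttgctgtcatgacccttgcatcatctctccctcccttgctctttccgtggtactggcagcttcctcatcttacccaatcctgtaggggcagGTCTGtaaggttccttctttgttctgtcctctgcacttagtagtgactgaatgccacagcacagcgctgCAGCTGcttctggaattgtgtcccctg
Islr: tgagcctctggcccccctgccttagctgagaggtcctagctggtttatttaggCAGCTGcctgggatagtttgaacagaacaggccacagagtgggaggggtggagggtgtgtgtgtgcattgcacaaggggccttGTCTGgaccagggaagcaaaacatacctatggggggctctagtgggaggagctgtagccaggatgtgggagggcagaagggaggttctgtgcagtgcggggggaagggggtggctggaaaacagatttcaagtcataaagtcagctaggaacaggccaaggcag

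The Itgbl1 window held none of the 5 letter strings. Those of Pi16 and Islr each held 1 SMAD core and 1 CAGCTG. Among all 6 listed windows, 5 held the SMAD core (every one but Itgbl1), 3 held CAGCTG (Pi16, Dpep1 and Islr), 1 held the TEAD core (Dpep1) and 0 held the AP-1 or TATA string. Over 32851 windows of the same length the shares were 49.6% for the SMAD core, 16.3% for CAGCTG, 14.7% for the TEAD core, 7.81% for AP-1 and 13.6% for TATAAA. Tcf21 carried 3 SMAD cores, between positions -134 and -90 from the start. These are matches of letters in a short window, with no measurement of binding.

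Itgbl1 (chromosome 14, 123659971 to 123975618, GRCm38) encodes a secreted protein with repeats like those in the stalk of beta integrins. It stood at 60.6, 85.0 and 39.6 CPM in Sham 1, 2 and 3 and at 9.33, 14.0 and 14.5 CPM in TAC 1, 2 and 3. The lowest Sham-labelled library thus lay well above the highest labelled TAC. The log2 difference was -2.29 (SE 0.30), rank 40 of 15198 genes by p-value. With 1 library left out it lay between -2.53 and -1.98.

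Cthrc1 (chromosome 15, 39076932 to 39087121) encodes a secreted collagen-triple-helix-repeat protein that marks a matrix-producing fibroblast population in the infarcted mouse heart. It had 26, 68 and 28 counts in Sham 1, 2 and 3 and 3, 1 and 0 counts in TAC 1, 2 and 3. It was close to the limit of detection in every TAC-labelled library and low even in the Sham-labelled ones, at 1.24, 2.40 and 1.52 CPM. The summed counts, 122 against 4, give a depth-corrected ratio of 27.1, with an exact interval of 10.3 to 101 at 95% confidence that covers counting error only. The fitted log2 difference was -4.59 (SE 0.66), a value that depends on the prior count at such low levels, and it lay between -5.80 without TAC 1 and -4.06 without TAC 3. In limma it was -2.76 on log2(FPKM + 0.1) and -0.78 on log2(FPKM + 1), scales that shrink the change of a gene at such levels.

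Meox1 (chromosome 11, 101877510 to 101894374), a homeobox factor needed for the activated state of fibroblasts in the stressed mouse heart, stood at 18.2, 63.8 and 35.4 CPM in Sham 1, 2 and 3. In TAC 1, 2 and 3 it stood at 9.91, 9.93 and 7.57 CPM. All Sham-labelled libraries were higher, but they spread 3.50-fold among themselves, against 1.31-fold within the other group. The log2 difference of -2.10 (SE 0.41) did not pass in edgeR. DESeq2 called it (adjusted p = 4.13e-06), as did edgeR with unscaled totals (0.0411) and without the filter on low counts (0.0221). Without Sham 1, the lowest of its group, it was -2.45 (adjusted p = 0.0242). Leaving out Sham 2, the highest, gave -1.55.

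Fap (chromosome 2, 62500943 to 62574075), a serine protease of the cell surface that cleaves denatured collagen, was low in both groups. Its levels were 10.2, 7.66 and 8.58 CPM in Sham 1, 2 and 3 and 5.70, 8.30 and 7.17 CPM in TAC 1, 2 and 3. TAC 2 lay above Sham 2, so the groups overlapped. The log2 difference was -0.32 (SE 0.19), and no alternative setting passed it (adjusted p between 0.326 and 0.686). The fitted differences of the other 3 activated markers were at least 4.29-fold.

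Among the resting markers, the receptor Pdgfra and the lineage factor Tcf21 had small differences that did not pass. Pdgfra (chromosome 5, 75152292 to 75198215), the receptor for platelet-derived growth factors that is used to mark cardiac fibroblasts, stood at 101, 152 and 115 CPM in Sham 1, 2 and 3. In TAC 1, 2 and 3 it stood at 84.2, 81.9 and 91.9 CPM, all below the lowest library labelled Sham. The log2 difference was -0.51 (SE 0.16, adjusted p = 0.138 in edgeR). Tcf21 (chromosome 10, 22817279 to 22820128), the basic helix-loop-helix factor of the epicardial fibroblast lineage, stood at 3.11, 2.26 and 2.17 CPM in Sham 1, 2 and 3 and at 2.56, 1.37 and 2.64 CPM in TAC 1, 2 and 3. The groups overlapped, and the difference of -0.19 (SE 0.31, adjusted p = 0.764) turned to 0.053 without TAC 2. Its counts were 27 to 65 per library, which limits the precision of this value.

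Pi16 and Islr differed more. Pi16 (chromosome 17, 29318877 to 29329413) encodes a peptidase inhibitor of the CRISP family and marks adventitial fibroblasts shared by many organs. Pi16 stood at 102, 157 and 78.1 CPM in Sham 1, 2 and 3 and at 33.3, 51.0 and 29.4 CPM in TAC 1, 2 and 3, with no overlap. Its log2 difference of -1.57 (SE 0.30) lay just outside the threshold (edgeR adjusted p = 0.0517). It passed with library totals left unscaled, without the filter on low counts, with DESeq2 and with limma on both pseudocounts (adjusted p from 1.15e-05 to 0.0484 in these settings). Islr (chromosome 9, 58156265 to 58159221), a leucine-rich-repeat surface protein, stood at 45.3, 48.3 and 27.6 CPM in Sham 1, 2 and 3 and at 13.8, 22.1 and 19.8 CPM in TAC 1, 2 and 3. Its groups did not overlap either, at a log2 difference of -1.12 (SE 0.25, adjusted p = 0.0710). DESeq2 (adjusted p = 0.00115) and the fit without the filter (0.0375) called it.

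Scara5 was the one member with the opposite sign. Scara5 (chromosome 14, 65666403 to 65764826) encodes a class A scavenger receptor that binds ferritin and is expressed by adventitial fibroblasts. It stood at 18.8, 8.58 and 13.1 CPM in Sham 1, 2 and 3 and at 20.5, 26.0 and 28.6 CPM in TAC 1, 2 and 3. All 3 TAC-labelled libraries were higher, TAC 1 only slightly above Sham 1. The log2 difference was 0.90 (SE 0.28) and did not pass in edgeR (adjusted p = 0.134), while DESeq2 called it (0.0299). Dpep1 (chromosome 8, 123186235 to 123201810), a membrane dipeptidase that cleaves leukotriene D4, stood at 65.7, 64.2 and 40.4 CPM in Sham 1, 2 and 3 and at 39.2, 38.5 and 59.5 CPM in TAC 1, 2 and 3. Sham 3 and TAC 3 each sided with the other group, and the difference of -0.31 (SE 0.24, adjusted p = 0.492) did not pass.

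Per unit of transcript length (FPKM), Dpep1 was the most abundant of the 10 in all 6 libraries and Cthrc1 the least. Dpep1 had 25.8 ± 5.83 FPKM (SD, n = 3) in the Sham-labelled libraries and 20.0 ± 5.50 in the TAC-labelled ones. In the Sham-labelled libraries, Meox1 (17.9 ± 10.2), Islr (17.5 ± 4.38) and Pi16 (15.3 ± 5.08) followed with overlapping ranges, then Itgbl1 (9.84 ± 3.36) and Pdgfra (8.35 ± 1.67), whose levels did not differ beyond their spread. Tcf21 (2.10 ± 0.412), Scara5 (1.72 ± 0.653) and Fap (1.29 ± 0.192) came next, and Cthrc1 had 0.772 ± 0.256. In the TAC-labelled libraries the order after Dpep1 was Islr (7.73 ± 1.84), Pdgfra (5.62 ± 0.415), Pi16 (4.96 ± 1.50) and Meox1 (4.01 ± 0.547). Itgbl1 (1.95 ± 0.467) there lay below Scara5 (3.05 ± 0.545) and near Tcf21 (1.75 ± 0.571), and Fap (0.990 ± 0.190) came before Cthrc1. Islr, Pdgfra, Pi16 and Meox1 each overlapped the next in that order, whereas the ranges of Scara5 and Itgbl1 did not meet. The 4 activated markers made up 21.1%, 34.7% and 31.9% of the summed FPKM of all 10 in Sham 1, 2 and 3 and 15.1%, 15.4% and 11.7% in TAC 1, 2 and 3. That share is set mainly by Meox1 and Itgbl1.

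Several markers shared their highest library, while the lowest varied. Sham 2 was the highest library for Cthrc1, Meox1, Itgbl1, Pdgfra, Pi16 and Islr and the lowest for Scara5, while Sham 1 was the highest for Fap, Tcf21 and Dpep1. The lowest library was TAC 1 for Fap, Itgbl1 and Islr, TAC 2 for Pdgfra, Tcf21 and Dpep1, and TAC 3 for Cthrc1, Meox1 and Pi16. With every marker divided by Pdgfra in the same library, the values speak to how the markers stood relative to a general fibroblast receptor. Pdgfra is itself a member and was higher in every Sham-labelled library (log2 difference -0.51, SE 0.16). Each ratio to Pdgfra therefore also carries that difference. The FPKM ratio of Itgbl1 to Pdgfra was 1.42, 1.32 and 0.812 in Sham 1, 2 and 3 and 0.261, 0.403 and 0.372 in TAC 1, 2 and 3. The ratio of Meox1 to Pdgfra was 1.22, 2.82 and 2.08 against 0.791, 0.814 and 0.553 in the same order. Pi16 to Pdgfra was 2.03, 2.07 and 1.36 against 0.792, 1.25 and 0.642. In these 3 ratios, and in that of Cthrc1, every Sham-labelled library remained higher, whereas Scara5 to Pdgfra was 0.348, 0.105 and 0.212 against 0.454, 0.590 and 0.578, again with no overlap. For Fap, Islr, Dpep1 and Tcf21 the ratio to Pdgfra overlapped between the groups.

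Divided by Col1a1, the alpha 1 chain of type I collagen, several markers no longer parted the labelled groups. Col1a1 itself was higher in every Sham-labelled library, by a fitted 2.68-fold, without passing (edgeR adjusted p = 0.0711). Each ratio to Col1a1 therefore also carries that difference. Cthrc1 to Col1a1 was 0.0178, 0.0186 and 0.0166 in Sham 1, 2 and 3 and 0.00371, 0.00107 and 0 in TAC 1, 2 and 3, so the Sham-labelled libraries remained higher. Itgbl1 to Col1a1 was 0.310, 0.236 and 0.154 in Sham 1, 2 and 3 and 0.0852, 0.106 and 0.240 in TAC 1, 2 and 3, with TAC 3 inside the range of the other group. Pi16 to Col1a1 was 0.358 ± 0.0932 (SD, n = 3) against 0.334 ± 0.0780, Meox1 to Col1a1 0.389 ± 0.120 against 0.277 ± 0.0737 and Islr to Col1a1 0.426 ± 0.177 against 0.558 ± 0.287, all overlapping. Scara5 to Col1a1 still parted the groups, at 0.0762, 0.0188 and 0.0403 in Sham 1, 2 and 3 and 0.148, 0.155 and 0.374 in TAC 1, 2 and 3. Pdgfra to Col1a1 was also higher in every TAC-labelled library, at 0.412 ± 0.206 against 0.196 ± 0.0205 (SD, n = 3), while for Fap to Col1a1 Sham 1 and TAC 1 met at 0.0475. Tcf21 and Dpep1 to Col1a1 overlapped. The ratio of the 2 adventitial markers, Pi16 to Scara5, was 5.84, 19.7 and 6.44 in Sham 1, 2 and 3 and 1.75, 2.12 and 1.11 in TAC 1, 2 and 3. With 3 libraries against 3, an exact two-sided permutation test of a ratio cannot go below 0.1, so the ratios are given as values without p.

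**Figure D3:**
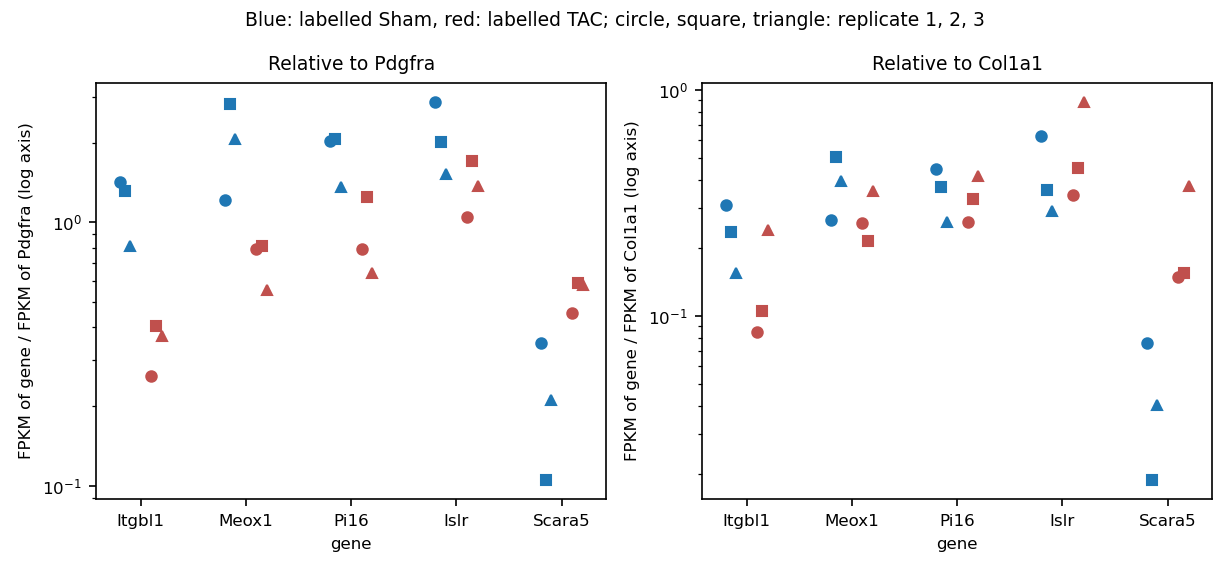
FPKM of 5 markers divided by that of Pdgfra (left) or Col1a1 (right) in each library, on log axes. Relative to Pdgfra, Itgbl1, Meox1, Pi16 and Scara5 part the labelled groups, and relative to Col1a1 only Scara5 of these 5 does, with all TAC-labelled libraries at 0.148 or more and all Sham-labelled ones at 0.0762 or less.

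Other genes of the same states were read from lists chosen with earlier results of these data known. Of 21 further genes reported for activated fibroblasts, myofibroblasts or matrifibrocytes, all tested, 10 were higher in the Sham-labelled libraries, 11 did not pass, and 20 had a negative estimate (median log2 difference -2.42; 49.1% of all genes tested had a negative estimate). The 4 with the smallest p were Thbs4, a matricellular thrombospondin (24.8-fold), Ltbp2, a latent TGF-beta binding protein (18.8-fold), Cilp, a cartilage intermediate layer protein (11.8-fold), and Nox4, an NADPH oxidase that produces hydrogen peroxide (8.65-fold), with edgeR adjusted p from 0.00792 to 0.0256. The count was 0 without TAC 1, 2 without TAC 2 and 4 without TAC 3, Sham 2 or Sham 3. The one positive estimate belonged to Acta2, smooth muscle alpha-actin, at 0.71 (SE 0.23, adjusted p = 0.145 in edgeR, 0.0468 in DESeq2), a gene that vascular smooth muscle also expresses. Among the genes of the late matrifibrocyte state, which resembles cartilage in part, Comp, cartilage oligomeric matrix protein (13.8-fold), and Fmod, fibromodulin (7.17-fold), were higher in the Sham-labelled libraries (edgeR adjusted p = 0.0285 and 0.0489). Cilp2 and Chad did not pass in edgeR, with log2 differences of -2.73 (SE 0.81) and -0.62 (SE 0.72), and DESeq2 called Cilp2 (adjusted p = 0.0153).

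Of 20 further genes reported for resting, adventitial or shared fibroblast populations, 2 passed, Mfap5, a microfibril protein (4.83-fold), and Cd248, endosialin (2.13-fold), each with the Sham-labelled libraries higher (adjusted p = 0.0448 and 0.0480). The median over the 20 was -0.24, with 13 negative and 7 positive estimates. Also read were 12 genes of fibroblasts in general, some of which, such as Vim, other cell types also express. All 12 had a negative estimate (median -0.89) and 3 passed: Mfap4 (4.19-fold), Vim, vimentin (1.83-fold), and Col1a2 (2.77-fold). The calls of both lists were lost when any 1 library other than Sham 1 was left out. The general genes summed to 554 to 652 FPKM in the Sham-labelled libraries and 310 to 332 in the TAC-labelled ones. All 12 were detected, so RNA of general fibroblast genes was present in every library. That total moved with the members, and its part in their differences was not tested.

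**Figure D4:**
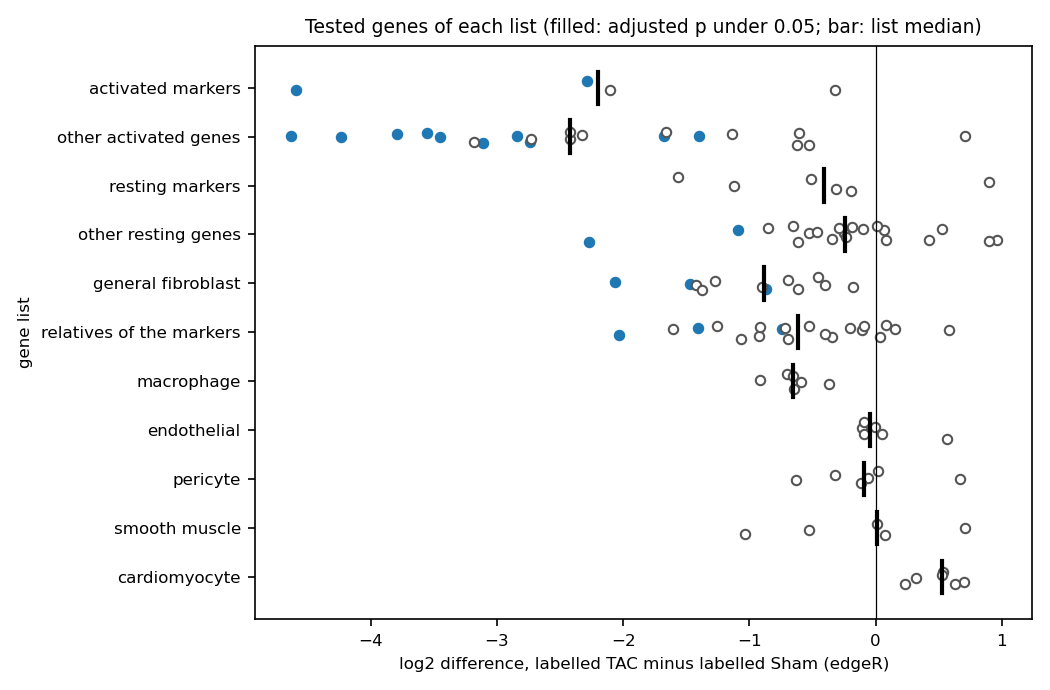
Fitted log2 difference of every tested gene in each list, with filled points past an adjusted p of 0.05 and a bar at the list median. The 2 lists for activated fibroblasts have medians of -2.20 and -2.42, the 2 resting lists -0.41 and -0.24, and the cardiomyocyte list 0.53.

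Markers of the other cell types of the ventricle were read beside them, and 0 of the 6 macrophage, 6 endothelial, 6 pericyte, 5 smooth muscle and 6 cardiomyocyte markers passed in edgeR. In that order 3, 1, 3, 3 and 5 of them had an unadjusted p under 0.05, and DESeq2 called 1, 1, 1, 3 and 3. Over all genes, 3178 of 15198 had such a p in edgeR, and DESeq2 called 1164 of 15646. The 6 macrophage markers summed to 165 to 168 FPKM in the Sham-labelled libraries and 69.1 to 124 in the TAC-labelled ones, and all had a negative estimate, such as Lyz2 at -0.65 (SE 0.20) and Csf1r at -0.59 (SE 0.19). The 6 cardiomyocyte markers all had a positive estimate, such as Tnni3 at 0.63 (SE 0.13) and Ryr2 at 0.52 (SE 0.16), with sums of 8413 to 11018 against 9644 to 14660 FPKM. Endothelial (174 to 218 against 183 to 207), pericyte (255 to 312 against 255 to 339) and smooth muscle sums (82.5 to 102 against 88.2 to 133) overlapped. The smallest p in each belonged to Kdr at 0.56 (SE 0.14), Abcc9 at 0.67 (SE 0.17) and Cnn1 at -1.04 (SE 0.20). The endothelial and pericyte lists each had 4 negative and 2 positive estimates, and the smooth muscle list had 2 negative and 3 positive. Each of these named genes thus had the sign of the fewer genes in its list. Mesothelial markers summed to at most 5.52 FPKM, and adipocyte and lymphocyte markers each to at most 1.84 FPKM in any library. Of their 7 tested genes, 0 had an unadjusted p under 0.05 in edgeR, and neither edgeR nor DESeq2 called any. Lep, Ms4a1 and Cd8a stayed under 0.1 FPKM throughout. The macrophage sums parted the labelled groups as most members did, the cardiomyocyte estimates had the other sign, and the part of either in the members' values was not tested.

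Genes of the same protein families gave a further comparison. Of 23 such relatives, 20 were tested and 3 were higher in the Sham-labelled libraries (median -0.61, 16 negative and 4 positive estimates). Crispld1, a secreted protein of the CRISP family to which Pi16 belongs, stood at 16.2, 18.9 and 15.3 CPM in Sham 1, 2 and 3 and at 4.54, 3.92 and 3.81 CPM in TAC 1, 2 and 3 (log2 difference -2.03, SE 0.16, adjusted p = 0.00792). Scara3, a scavenger receptor of the same class as Scara5, stood at 6.55, 5.76 and 6.89 CPM against 1.89, 2.75 and 2.59 CPM (-1.41, SE 0.21, adjusted p = 0.0321), opposite in sign to the estimate of Scara5. Colec12, a collectin with a scavenger receptor structure, was 1.67-fold higher in the Sham-labelled libraries (adjusted p = 0.0391). Of these calls, that of Crispld1 was lost without TAC 1 (adjusted p = 0.0577), and those of Scara3 and Colec12 when any 1 library other than Sham 1 was left out.

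The closest paralogs of 2 activated markers were singled out after their values were seen. Meox2 had a positive estimate, while that of Dpp4 was smaller than its SE. Meox2, the other homeobox gene of the Meox pair and known from endothelial cells and muscle, stood at 11.6, 16.0 and 15.7 CPM in Sham 1, 2 and 3 and at 21.9, 23.7 and 19.4 CPM in TAC 1, 2 and 3 (log2 difference 0.58, SE 0.16, adjusted p = 0.113 in edgeR and 0.0485 in DESeq2). The FPKM ratio of Meox1 to Meox2 was 1.67, 4.23 and 2.39 in Sham 1, 2 and 3 and 0.479, 0.444 and 0.414 in TAC 1, 2 and 3, so the more abundant of the pair differed between the labelled groups. Dpp4, the dipeptidyl peptidase near Fap on chromosome 2 and its nearest relative, had a log2 difference of 0.08 (SE 0.37, adjusted p = 0.921), with overlapping groups.

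A second reading of the Itgbl1 locus came from the lncRNA transcripts: 6 of them overlapped Itgbl1, all unspliced, 2 overlapped Scara5 and 1 each overlapped Cthrc1 and Tcf21. 4 of the 6 lay wholly within the span of Itgbl1, beginning 7.75, 102, 108 and 307 kb from its start. The first of them (chr14:123667719-123671024) stood at 16.4, 18.5 and 8.46 CPM in Sham 1, 2 and 3 and at 2.61, 3.37 and 1.41 CPM in TAC 1, 2 and 3. All 4 were higher in every library labelled Sham, by 5.87-fold to 8.44-fold, beside the 4.89-fold of Itgbl1 itself. The largest of these, at 307 kb, rests on 1, 9 and 4 counts in TAC 1, 2 and 3, and its log2 difference of -3.08 became -3.97 without TAC 2. None passed in edgeR over the lncRNA table (adjusted p from 0.134 to 0.194, unadjusted p under 0.05 for all 4; no other tool was run on it), where 0.106% of 16035 transcripts tested did and 20.6% had groups that did not overlap, 10.3% with the Sham-labelled libraries higher. The 2 transcripts that run past the far end of Itgbl1 were higher on average in the TAC-labelled libraries, with 0.400 ± 0.125 against 0.0710 ± 0.0617 CPM and 0.807 ± 0.388 against 0.502 ± 0.305 CPM (SD, n = 3). The first was too low to be tested, with 9, 11 and 6 counts in TAC 1, 2 and 3 and 2, 3 and 0 in Sham 1, 2 and 3. The second had overlapping groups and did not pass (log2 difference 0.72, SE 0.60, edgeR adjusted p = 0.672). With no strand setting of the counting stated in the sources used here, reads of these transcripts and of Itgbl1 cannot be told apart. Genes that overlap Meox1, Pdgfra or Dpep1 in the gene table had at most 1 count in any library.

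**Figure D5:**
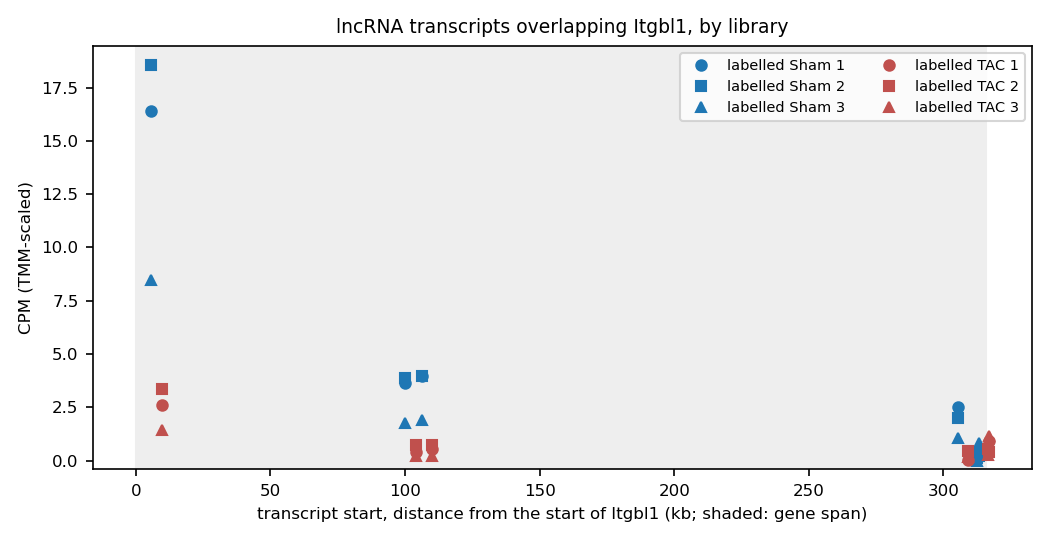
TMM-scaled CPM of the 6 lncRNA transcripts overlapping Itgbl1 in each library, placed by the distance of their start from the start of the gene, with the gene's span shaded. The 4 transcripts inside the span are higher in all Sham-labelled libraries, from 16.4, 18.5 and 8.46 CPM at 7.75 kb down to 2.52, 2.01 and 1.05 CPM at 307 kb.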

How the data were processed

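Left ventricular RNA was measured in 6 libraries, 3 labelled TAC and 3 labelled Sham, tied to their columns by the description label. Both deposited tables, of genes and of lncRNA transcripts, give counts and FPKM for every library per the file headers, and each such column was tied to a library. Counts, as deposited, are unnormalised whole numbers. The deposited FPKM values divide each count by a length and the library's total. Per the submitters' processing notes, GRCm38 (mm10) was the build, and HISAT2 (2.0.4) and StringTie (1.3.0) were among the tools. How counting was done, its strand setting and the annotation version are not given.

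The main test was edgeR 4.0.16 quasi-likelihood in R 4.3.3, with TMM scaling, filterByExpr at a minimum count of 10, no block, and Benjamini-Hochberg adjustment over all genes tested at 0.05, run on each table alone. For the lncRNA table the library size was the total implied by count, FPKM and length. An SE is |log2 difference| / √F. Levels are TMM-scaled CPM or FPKM. The test was tried on simulated data, but the outcome is not given here and no statement above rests on it. The alternatives were median-of-ratios scaling, unscaled totals, totals without mitochondrial genes, no filter, a mean FPKM of at least 1, DESeq2 1.42.0, limma 3.58.1 on log2(FPKM + 0.1) and log2(FPKM + 1) at a mean FPKM of at least 0.1, a replicate block and each library left out. The lncRNA fit was added after seeing the data. The members and lists were chosen with earlier results of these data known. Named genes are all members, the label check genes, and up to 4 passing genes with the smallest p per list, or up to 2 where none passed. Acta2, Comp, Fmod, Cilp2, Chad, Meox2, Dpp4 and Col1a1 were chosen after their values were seen. Motif searches used the RefSeq promoter table. 1 of the lists of other cell types is not reported here.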

Additional observations from a re-analysis of the deposited data

How the results depend on the processing

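Of 149 values for single markers under other settings, 124 had the same direction and side of the threshold, 11 lost the call, 13 gained one and 1 turned sign. That one was Tcf21 without the TAC-labelled library 2 (log2 difference 0.053, and between -0.35 and 0.053 with 1 library left out). All lost calls belonged to the 2 markers called in the main test, in 6 of 14 settings for Cthrc1 and 5 of 15 for Itgbl1. The count of activated markers past the threshold was 2 and became 1 at a mean FPKM of at least 1, which drops Cthrc1, and 0 in the fit with a replicate block. It was 3, with Meox1 added, with unscaled totals, without the filter and with DESeq2. With 1 library left out it ran from 0 to 3. The count of resting markers was 0, and became 1 with unscaled totals, 2 without the filter, 3 with DESeq2, 1 with limma on each pseudocount and 1 with the replicate block (Pi16), while no fit with 1 library left out called any. Over the whole table the count was 217, and 338 with unscaled totals (split 296 and 42 between higher under the Sham and the TAC label, against 168 and 49), 432 without the filter, 1164 with DESeq2 and 41 with the replicate block. With 1 library left out it ran from 0 to 397, the 0 being without TAC 1 (2564 genes at an unadjusted p under 0.05). The cause of these shifts was not tested, and the fits with 1 library left out also had fewer libraries. No pairing by replicate number was seen: same-numbered libraries deviated from their group means with correlations of -0.11, -0.14 and -0.09, and no library correlated best with its own number. Differently numbered libraries ran from -0.02 to 0.13, and values this small cannot exclude a pairing. DESeq2 called 18 of the further activated genes (10 in edgeR), 8 general fibroblast genes (3), 6 relatives (3) and 5 partners (1), and the block 6, 0, 1 and 0. The lncRNA transcript overlapping Tcf21 changed sign in 3 fits with 1 library left out (-0.42 to 0.31), and those within Itgbl1 kept theirs. Cthrc1 and Tcf21 are limited by depth, at 0 to 68 and 27 to 65 counts per library.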

Other observations

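Genes that act with the markers were read from a list of 32 ligands, receptors, dimer partners and regulators, of which 30 were tested. 1 passed, and the estimates were 15 negative and 15 positive, with a median log2 difference of -0.03. Tgfb3, a ligand of the TGF-beta pathway that activates fibroblasts, stood at 43.9, 49.7 and 37.7 CPM in Sham 1, 2 and 3 and at 23.3, 23.8 and 22.3 CPM in TAC 1, 2 and 3 (log2 difference -0.92, SE 0.13, edgeR adjusted p = 0.0285; 0.102 without TAC 1). Every Sham-labelled library was higher. The call was kept without Sham 1 and lost when any other single library was left out. The other TGF-beta pathway genes of the list, chosen after their values were seen, did not pass in edgeR. Tgfb2 had the largest difference of the list, at -2.04 (SE 0.38, edgeR adjusted p = 0.0505). Tgfb1, Tgfbr1 and Tgfbr2 had log2 differences of -0.60, -1.03 and -0.61, and Smad2, Smad3 and Smad4 of 0.002, 0.18 and -0.07. Of the ligands of Pdgfra, Pdgfc had a log2 difference of -0.99 (SE 0.29, adjusted p = 0.124 in edgeR, 0.0462 in DESeq2) and Pdgfa of 0.22 (SE 0.17, adjusted p = 0.518). These 2, and the E-protein partners of Tcf21 that follow, were chosen after their values were seen. Tcf3 and Tcf12 had log2 differences of 0.06 (SE 0.18) and -0.11 (SE 0.13).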
